A study of Mus musculus with 4 samples.

Results

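The genes described here are Lgr5, Lgr4, Rnf43, Axin2, Tnfrsf19, Lrig1, Prom1 and Bmi1, which are used as stem cell markers or respond to Wnt signalling. They were taken by gene symbol, and each of the 8 was read by 1 probe set that the platform annotation assigns to that gene alone, of 19938 genes measured in this way. RNA came from adult stomachs of mice with a C57BL/6 background, from zymogenic (chief) cells and mucous neck cells cut out of sections by laser capture. The groups were MIST1-null zymogenic, wild-type zymogenic, MIST1-null neck and wild-type neck cells, each 1 Affymetrix Mouse Gene ST array of RNA pooled over several mice. MIST1, encoded by Bhlha15, is a transcription factor of secretory cells and was knocked out in the MIST1-null mice. The labels place no cell type limit on the knockout. Zymogenic cells were chosen as cells basal to the GS-II lectin signal without the outline of parietal cells.

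Wnt proteins bind Frizzled and LRP receptors at the cell surface and thereby keep beta-catenin from being degraded, and beta-catenin then drives target genes together with TCF/LEF factors. R-spondins raise this signal through the receptors LGR4 and LGR5, which take RNF43 out of action, a ubiquitin ligase that removes Frizzled receptors. In the mouse stomach, Lgr5 and Tnfrsf19 have been used to mark cells at the corpus gland base that can act as reserve stem cells, and Lrig1, Prom1 and Bmi1 mark stem or progenitor cells in several epithelia.

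Levels are array intensities on a linear scale, and differences are differences of log2 intensities, given as zymogenic minus neck or MIST1-null minus wild-type. A gene was counted as detectable in a comparison where the higher of its 2 intensities reached 43.7, the median over all probe sets with 1 gene. That level is a rank among probe sets, since no background was measured. A difference of at least 2-fold in a detectable gene was called. With 1 array per group no difference has a replicate check, no test was possible, and every value below describes these arrays. For some genes both values of a cell type or genotype lay above both values of the other. The share of all genes with such an order was not counted, so the order sets no gene apart. In such pooled tissue samples, fewer cells of a type and less RNA per cell cannot be told apart.

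The arrays were close in their overall level, with medians of 37.9 to 40.9. Bhlha15 had 22 in MIST1-null zymogenic cells against 149.8 in wild-type zymogenic cells, and 20.2 in MIST1-null neck cells against 59.7 in wild-type neck cells. Where its probes lie relative to the deletion is not known here. Muc6, the gland mucin, had 20.7 and 26.7 in the MIST1-null and wild-type zymogenic arrays, against 2980 and 2511 in the neck arrays. Chia1, an acidic chitinase of zymogenic cells, had 9022 and 8209 in those zymogenic arrays, against 1494 and 1806 in the neck arrays. Cblif and Pgc, also zymogenic markers, differed less. Cblif was 2.37-fold higher in zymogenic than in neck cells of MIST1-null and 2.06-fold of wild-type mice, and Pgc 1.23-fold and 1.15-fold. Of 6 mucous neck markers, 5 were called lower in zymogenic cells of each genotype. Among them Tff2 still had 1320.4 in wild-type zymogenic against 3087.7 in wild-type neck cells. Aqp5 ran the other way, by 1.47-fold in MIST1-null and 1.45-fold in wild-type mice. Pga5, a pepsinogen gene listed among the zymogenic markers, went against its label, with 20.4 and 31.0 in the zymogenic arrays against 1884.4 and 1349.5 in the neck arrays.

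Lgr5 was the only one of the 8 genes that was at least 2-fold higher in zymogenic than in neck cells, and it was so in both genotypes. Prom1 was lower in zymogenic than in neck cells of both genotypes, by at least 2-fold in MIST1-null mice alone. The remaining 6 genes stayed under 2-fold in all 4 comparisons, so the genes did not move as 1 block. Between genotypes, 0 of the 8 genes differed by 2-fold or more in either cell type.

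**Figure D1:**
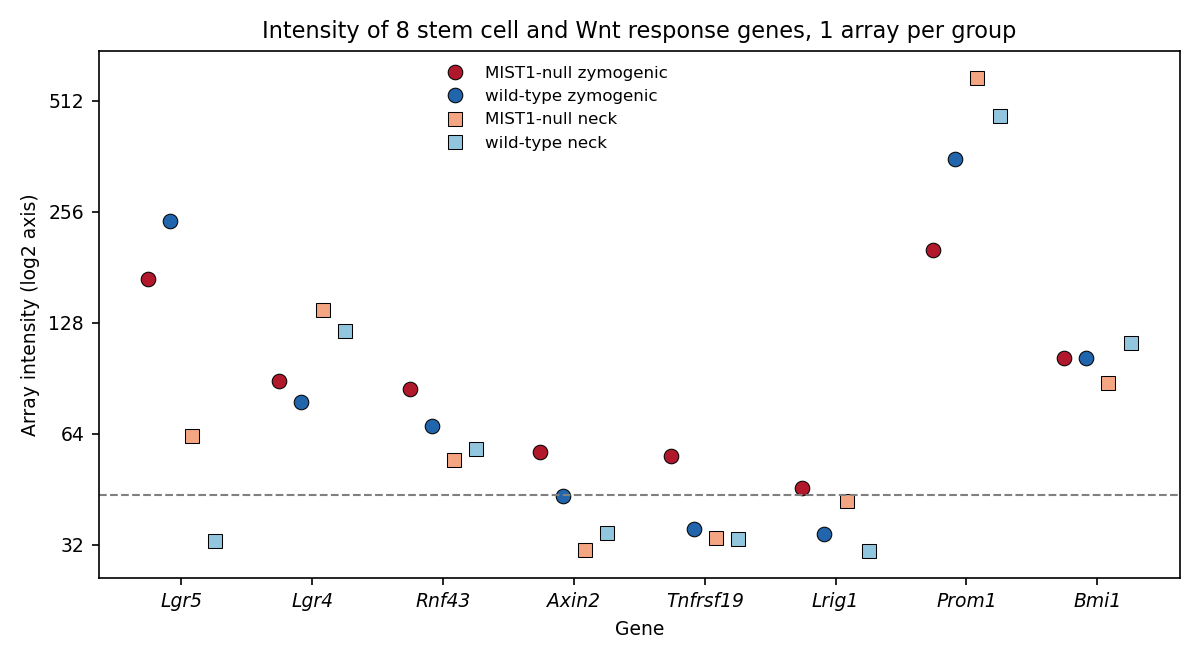
Array intensity of each gene (log2 axis) in MIST1-null zymogenic, wild-type zymogenic, MIST1-null neck and wild-type neck cells, with 1 point per array and the detection level of 43.7 as a dashed line. Lgr5 is high in both zymogenic arrays, Prom1 is high in both neck arrays, and Axin2, Tnfrsf19 and Lrig1 reach the line on 1 array each.

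Among the receptors, Lgr5 had intensities of 167.9 in MIST1-null zymogenic, 242.2 in wild-type zymogenic, 63.2 in MIST1-null neck and 32.8 in wild-type neck cells. Both zymogenic values lay above both neck values, and the wild-type neck value was under the detection level. In MIST1-null mice the zymogenic minus neck difference was 1.41, or 2.66-fold. In wild-type mice it was 2.89, or 7.39-fold, a size that is uncertain because the wild-type neck value was under the detection level. With a pseudocount of 32 added to every intensity, which shrinks differences of low values, the cell type differences were 1.07 in MIST1-null and 2.08 in wild-type mice, both still over 2-fold.

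These calls stand against a background in which many genes passed the same rule. In MIST1-null mice 2 of 8 genes, Lgr5 and Prom1, were called, where 9.7% of 11322 detectable genes were called, 4.9% higher and 4.8% lower in zymogenic cells. In wild-type mice 1 of the 5 genes that were detectable was called, where 13.1% of 11778 were, 6.27% higher and 6.78% lower. Lgr5 was 1 of 555 genes called higher in zymogenic cells of MIST1-null mice and 1 of 739 in wild-type mice.

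Lgr4, the broadly expressed relative of Lgr5 and likewise an R-spondin receptor, ran the other way. Its intensities were 89.2 in MIST1-null zymogenic, 77.8 in wild-type zymogenic, 138.8 in MIST1-null neck and 121.2 in wild-type neck cells. Both neck values lay above both zymogenic values, and the zymogenic minus neck difference was -0.64 in each genotype. Lgr6, the third receptor of this family, had 42 in MIST1-null zymogenic, 36.2 in wild-type zymogenic, 37.4 in MIST1-null neck and 36.8 in wild-type neck cells, under the detection level throughout.

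Rnf43 and Axin2 are feedback genes that Wnt signalling itself switches on and whose products dampen it, RNF43 at the receptor and AXIN2 as a scaffold of the complex that degrades beta-catenin. Rnf43 had 84.8 in MIST1-null zymogenic, 67 in wild-type zymogenic, 54.2 in MIST1-null neck and 58.1 in wild-type neck cells. Axin2 had 57.2 in MIST1-null zymogenic, 43.3 in wild-type zymogenic, 31 in MIST1-null neck and 34.3 in wild-type neck cells. Both genes were highest in MIST1-null zymogenic cells and had both zymogenic values above both neck values. The zymogenic minus neck difference of Axin2 was 0.88 in MIST1-null and 0.34 in wild-type mice, and that of Rnf43 was 0.65 in MIST1-null and 0.20 in wild-type mice. Axin2 was detectable on the MIST1-null zymogenic array alone, and none of these differences reached 2-fold.

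Znrf3, the partner and relative of Rnf43, had 40.5 in MIST1-null zymogenic, 38.6 in wild-type zymogenic, 50.4 in MIST1-null neck and 46.2 in wild-type neck cells. Unlike Rnf43 it had both neck values above both zymogenic ones, at differences of -0.32 in MIST1-null and -0.26 in wild-type mice.

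Tnfrsf19, also called Troy, encodes a receptor of the tumour necrosis factor receptor family and is a Wnt target in mouse intestinal stem cells. Its intensities were 55.8 in MIST1-null zymogenic, 35.2 in wild-type zymogenic, 33.4 in MIST1-null neck and 33.1 in wild-type neck cells. The gene was detectable on the MIST1-null zymogenic array alone, while the other 3 values lay close together under the detection level. Its differences were 0.66 between the genotypes in zymogenic cells and 0.74 between the cell types in MIST1-null mice, both under 2-fold. In wild-type mice, where its use as a marker of gland base cells would apply, its zymogenic minus neck difference was 0.09, with both values under the detection level.

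Promoter sequence was examined because Axin2, Rnf43 and Tnfrsf19 are known as Wnt targets. The sequences are from RefSeq (GRCm38.p6), where 7 of the 8 genes had 10 promoter windows of 300 bases between them. Lgr5 had no entry. Each window was searched on both strands for the TCF/LEF core in 4 spellings. These were CTTTGAA and, in place of its last pair of letters, the endings AT, TA and TT. The windows were also searched for CATATG, an E-box known to be bound by MIST1, which is its own reverse complement and was counted once. The 250 bases before the start site are shown 5′ to 3′ on the gene's strand, with matches to the TCF/LEF core or its reverse complement in capitals. Sp5, a direct Wnt target that had the cell type pattern of Lgr5, is shown beside the 8 genes, and its window at chr2:70474673-70474922 on the + strand held 2 matches. Tnfrsf19 is shown because 1 of its 2 windows, at chr14:61037988-61038237 on the - strand, was the only one of the 10 with a match. Axin2, at chr11:108920099-108920348 on the + strand, is shown as the Wnt feedback gene, and Prom1, at chr5:44101737-44101986 on the - strand, as the gene with the opposite cell type difference.
Sp5: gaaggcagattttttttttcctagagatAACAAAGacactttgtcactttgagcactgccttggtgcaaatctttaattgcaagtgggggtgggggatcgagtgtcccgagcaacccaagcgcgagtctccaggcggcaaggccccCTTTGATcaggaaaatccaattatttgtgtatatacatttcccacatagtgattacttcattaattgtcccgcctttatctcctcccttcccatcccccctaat
Tnfrsf19: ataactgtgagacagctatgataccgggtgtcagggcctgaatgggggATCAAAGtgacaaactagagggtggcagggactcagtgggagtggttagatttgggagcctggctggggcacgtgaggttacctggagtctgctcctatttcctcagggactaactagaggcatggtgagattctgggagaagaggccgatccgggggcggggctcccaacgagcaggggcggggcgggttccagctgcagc
Axin2: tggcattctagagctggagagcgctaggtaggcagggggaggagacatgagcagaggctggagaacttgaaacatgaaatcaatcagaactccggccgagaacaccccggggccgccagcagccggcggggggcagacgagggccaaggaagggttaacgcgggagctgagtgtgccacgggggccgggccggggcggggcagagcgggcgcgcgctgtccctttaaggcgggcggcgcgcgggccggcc
Prom1: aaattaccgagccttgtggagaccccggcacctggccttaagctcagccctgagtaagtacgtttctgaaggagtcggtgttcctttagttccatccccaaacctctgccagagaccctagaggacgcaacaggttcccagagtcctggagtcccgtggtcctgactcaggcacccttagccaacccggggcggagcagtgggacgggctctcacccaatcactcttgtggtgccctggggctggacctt
In Sp5 the match AACAAAG began 222 bases before the start site. The other match there, CTTTGAT, began 104 bases before it. In Tnfrsf19 the match ATCAAAG began 202 bases before the start site. A TCF/LEF core in 1 of these spellings was found in 16.9% of all 32851 promoter windows of the same length, and CATATG in 3.9% of them but in 0 of the 10 windows. These matches describe letters in a window and are not known sites.

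Lrig1 encodes a membrane protein that restrains growth factor receptors of the EGF receptor family. It had 45.6 in MIST1-null zymogenic, 34.1 in wild-type zymogenic, 42 in MIST1-null neck and 30.7 in wild-type neck cells. Both MIST1-null values lay above both wild-type values, by 0.42 in zymogenic and 0.45 in neck cells, at levels near or under the detection level. Its relative Lrig2 had 95.7 in MIST1-null zymogenic against 45.1 in wild-type zymogenic cells, a difference of 1.09 that was called but came to 0.73 with the pseudocount of 32, and 76.3 in MIST1-null neck against 65.1 in wild-type neck cells.

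Prom1 encodes prominin (CD133), a protein of membrane protrusions on the luminal cell surface. It had 201.5 in MIST1-null zymogenic, 355.2 in wild-type zymogenic, 590.3 in MIST1-null neck and 465.1 in wild-type neck cells. All 4 values were well over the detection level, both neck values lay above both zymogenic values, and the MIST1-null arrays held the lowest and the highest of them. The zymogenic minus neck difference was -1.55 in MIST1-null mice, a level 2.93-fold lower, and -0.39 in wild-type mice. Its relative Prom2 ran the opposite way, with 65.8 in MIST1-null zymogenic, 179.8 in wild-type zymogenic, 12 in MIST1-null neck and 51.7 in wild-type neck cells. Prom2 was called higher in zymogenic than in neck cells in MIST1-null mice (2.46) and in wild-type mice (1.80), and lower in MIST1-null than in wild-type cells of both types, by -1.45 in zymogenic and -2.11 in neck cells. With the pseudocount of 32 the last of these calls was lost, at -0.93, while the cell type differences came to 1.15 in MIST1-null and 1.34 in wild-type mice and the zymogenic genotype difference to -1.12.

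Bmi1 encodes a subunit of Polycomb repressive complex 1, a chromatin complex that keeps genes silent. It had 102.6 in MIST1-null zymogenic, 102.9 in wild-type zymogenic, 87.9 in MIST1-null neck and 112.7 in wild-type neck cells. The zymogenic values lay between the neck values, and its highest intensity was 1.28 times its lowest, the smallest such ratio of the 8 genes.

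**Figure D2:**
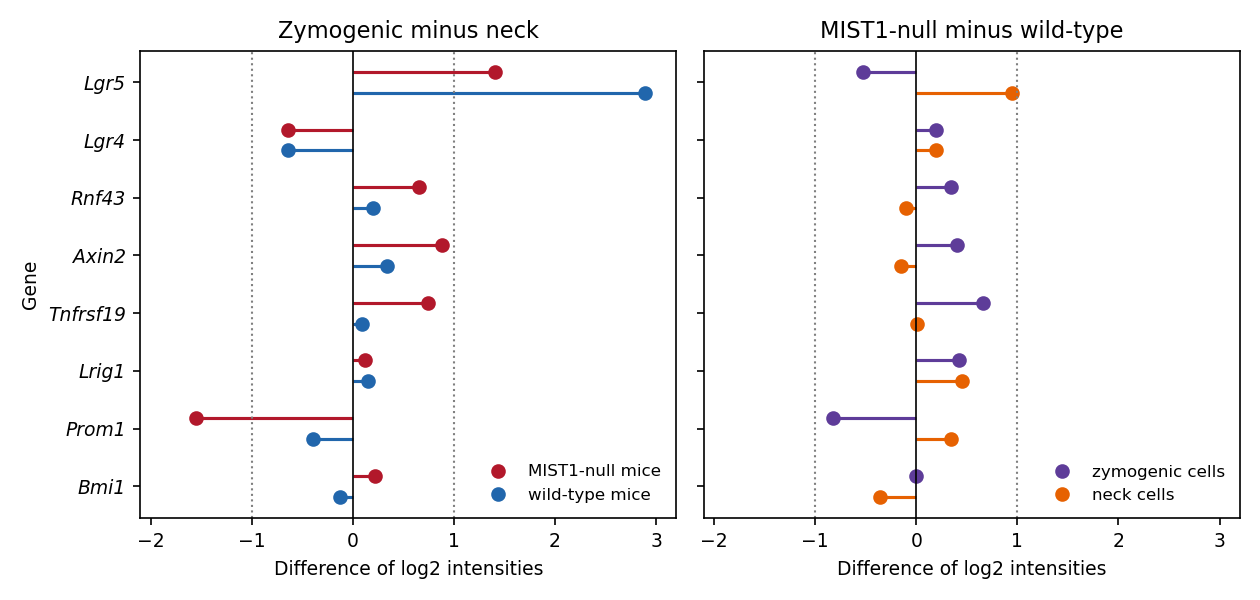
Differences of log2 intensities for the 8 genes, with 1 point per pair of arrays and dotted lines at 2-fold. On the left, zymogenic minus neck in MIST1-null and in wild-type mice: Lgr5 lies beyond 2-fold in both and Prom1 in MIST1-null mice. On the right, MIST1-null minus wild-type in zymogenic and in neck cells: no gene lies beyond 2-fold.

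Between genotypes, 0 of 8 genes were called in zymogenic cells, where 10.4% of 11826 detectable genes were called, 5.15% higher and 5.23% lower in MIST1-null mice. In neck cells 0 of the 5 genes that were detectable were called, where 4.29% of 10966 were, 1.89% higher and 2.4% lower in MIST1-null mice. The largest genotype differences belonged to Lgr5 in neck cells, at 0.95, and to Prom1 in zymogenic cells, at -0.82. Lgr5 in neck cells thus sat just under 2-fold, and it came to 1.00 and was called when each array was centred on its median. With the pseudocount of 32 it fell to 0.56, and its wild-type neck value of 32.8 was under the detection level. On that scale Prom1 in zymogenic cells had the larger difference, at -0.73.

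Lgr5 and Prom1 had genotype differences of opposite sign in the cell types. Lgr5 differed by -0.53 in zymogenic and 0.95 in neck cells, and Prom1 by -0.82 in zymogenic and 0.34 in neck cells. The zymogenic minus the neck genotype difference was -1.48 for Lgr5 and -1.16 for Prom1, and -1.01 and -1.05 with the pseudocount of 32. Such a difference of at least 2-fold was found in 15.0% of 12935 genes detectable on any array, so both genes stand among many. For Lgr5 it means that the cell types lay closer together in MIST1-null than in wild-type mice, and for Prom1 that they lay further apart.

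Rnf43, Axin2, Tnfrsf19 and Lrig1 each had their highest intensity on the MIST1-null zymogenic array, and all but Rnf43 were detectable on that array alone. Genes grouped by this array have a positive genotype difference in zymogenic cells by construction, so the sign is no result. The share of all genes highest on that array was not counted. The genotype differences of these genes in zymogenic cells ran from 0.34 to 0.66, and from 0.23 to 0.39 with the pseudocount of 32. Over all 8 genes the median genotype difference in zymogenic cells was 0.19 with that pseudocount, against -0.01 over all 19938 genes. In neck cells it was 0.08 against -0.02. The median cell type difference on the same scale was 0.30 in MIST1-null mice against 0.03 over all genes, and 0.06 in wild-type mice against 0.03. The medians over all genes include many genes that were not detectable, whose differences the pseudocount shrinks most, so the sets are unlike.

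Markers of cells that neither group was meant to hold moved with the cell types. Over all detectable genes, 4.9% were called higher in zymogenic than in neck cells of MIST1-null mice and 4.8% lower. In wild-type mice these shares were 6.27% and 6.78%, and the marker counts stand beside them. Of 13 fibroblast and smooth muscle markers, 10 were detectable in each genotype. In zymogenic cells 8 were called higher in MIST1-null mice and 6 in wild-type mice, and 0 were called lower. The summed intensity of all 13 was 2018 in MIST1-null zymogenic, 1671 in wild-type zymogenic, 487 in MIST1-null neck and 710 in wild-type neck cells. Of these calls, 8 held in MIST1-null and 5 in wild-type mice with the pseudocount of 32. The zymogenic arrays were thus the higher ones for these markers as for Lgr5, and no marker was at the floor intensity of 1. Of 8 endocrine markers, 7 were called higher in zymogenic cells of MIST1-null mice and 4 in wild-type mice, with sums of 13030 in MIST1-null zymogenic, 8938 in wild-type zymogenic, 3801 in MIST1-null neck and 5884 in wild-type neck cells. Of 10 immune markers, 6 were detectable in MIST1-null and 7 in wild-type mice. Of these, 4 were called higher in MIST1-null mice and 3 in wild-type mice, where 1 was called lower. The sums of all 10 were 576 in MIST1-null zymogenic, 671 in wild-type zymogenic, 248 in MIST1-null neck and 450 in wild-type neck cells.

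Between genotypes within a cell type, the fibroblast and smooth muscle sum and the endocrine sum ran opposite to Lgr5. In zymogenic cells Lgr5 had 167.9 in MIST1-null against 242.2 in wild-type mice, while the fibroblast and smooth muscle sum was 2018 against 1671 and the endocrine sum 13030 against 8938. The fibroblast and smooth muscle genes were divided in zymogenic cells, with 6 of 13 higher in MIST1-null mice and a median difference of -0.02 with the pseudocount of 32, so that their sum rests on a few abundant genes such as Dcn (478.5 against 338.9) and Vim (335.7 against 195.1). In neck cells Lgr5 had 63.2 in MIST1-null against 32.8 in wild-type mice, while those sums were 487 against 710 and 3801 against 5884, with 2 of the 13 fibroblast and smooth muscle genes higher in MIST1-null mice. The immune sum ran the other way from Lgr5 in neck cells, but with it in zymogenic cells, at 576 against 671. In neck cells its difference rests in large part on Cd53 (6.3 in MIST1-null against 117.7 in wild-type mice). There 2 of the 10 immune genes were higher in MIST1-null mice. The higher calls that held with the pseudocount of 32 numbered 5 in MIST1-null and 3 in wild-type mice for endocrine markers, and 3 in MIST1-null and 2 in wild-type mice for immune markers. The part of these cells in the cell type difference of Lgr5 was not tested.

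The neck arrays were higher for most proliferation markers, as they were for Prom1 and Lgr4. The exception was Cdk1 in wild-type mice, with 101.9 in wild-type zymogenic against 68.0 in wild-type neck cells. Of 9 measured proliferating cell markers, 9 were detectable in MIST1-null and 8 in wild-type mice. In zymogenic cells 6 were called lower in MIST1-null mice and 4 in wild-type mice, against 4.8% and 6.78% of all detectable genes. The marker sums were 800 in MIST1-null zymogenic, 895 in wild-type zymogenic, 2217 in MIST1-null neck and 1818 in wild-type neck cells. Of these calls, 5 held in MIST1-null and 3 in wild-type mice with that pseudocount. The order of the sums over the arrays was the same as that of Prom1, but it was not particular to proliferation markers. Mucous neck markers had it too, with sums of 689 in MIST1-null zymogenic, 1839 in wild-type zymogenic, 11845 in MIST1-null neck and 9616 in wild-type neck cells. Parietal markers summed to 8084 in MIST1-null zymogenic, 4455 in wild-type zymogenic, 9071 in MIST1-null neck and 8420 in wild-type neck cells. Of these 8 markers, 5 were called higher in MIST1-null than in wild-type zymogenic cells, against 5.15% of all detectable genes. With the pseudocount of 32, 3 of these calls held. Between cell types, 5 of 7 detectable parietal markers were called lower in zymogenic cells of wild-type mice, and 4 of these calls held. In MIST1-null mice 1 of 8 was called, higher in zymogenic cells, and that call was lost. Surface mucous markers summed to 3463 in MIST1-null zymogenic, 3347 in wild-type zymogenic, 1944 in MIST1-null neck and 2108 in wild-type neck cells, and 0 of 4 were called in any comparison. Endothelial markers summed to 373 in MIST1-null zymogenic, 395 in wild-type zymogenic, 289 in MIST1-null neck and 401 in wild-type neck cells. What these cells contributed to the levels of the 8 genes was not tested.

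**Figure D3:**
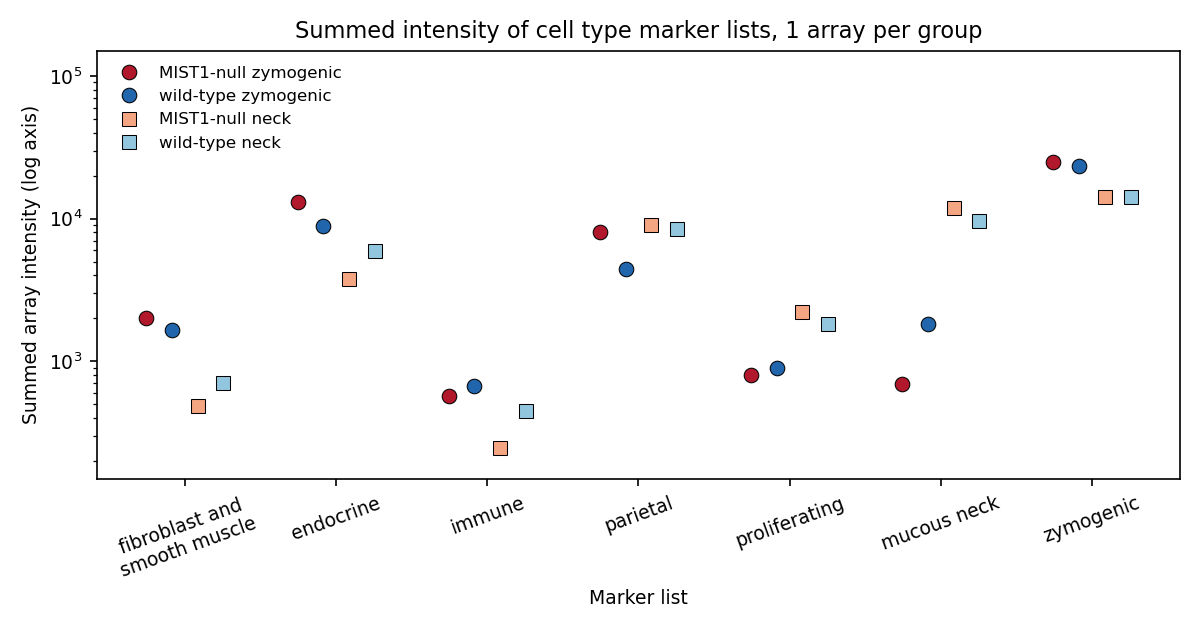
Summed array intensity (log axis) of cell type marker lists in MIST1-null zymogenic, wild-type zymogenic, MIST1-null neck and wild-type neck cells, with 1 point per array. Fibroblast and smooth muscle, endocrine and immune markers are higher in the zymogenic arrays, and proliferating and mucous neck markers are higher in the neck arrays.

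Over all genes, 23.1% of 12935 detectable genes were called in at least 1 of the 4 comparisons, and the counts of the gene lists stand beside that share. Calls on low intensities often did not hold with the pseudocount of 32. Of 19 measured Wnt ligand genes, 12 were detectable and 1 of them (8.33%) was called, Wnt7b, with 30.7 in MIST1-null against 65.4 in wild-type zymogenic cells. Its difference of -1.09 came to -0.64 with the pseudocount of 32, so that the call was lost. Of 6 genes for Wnt secretion and for R-spondins, 5 were detectable and 1 was called, Wls, the carrier that brings Wnt proteins to the cell surface. Wls had 210.6 in MIST1-null zymogenic, 93.7 in wild-type zymogenic, 96.6 in MIST1-null neck and 158.8 in wild-type neck cells. It was called higher in MIST1-null than in wild-type zymogenic cells (1.17) and higher in zymogenic than in neck cells of MIST1-null mice (1.12), while in wild-type mice its cell type difference was -0.76. Both calls were narrowly lost with the pseudocount of 32, at 0.95 and 0.92.

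Of 18 receptor genes 15 were detectable and 4 (26.7%) were called, Lgr5 and 3 Frizzled genes. Fzd10 had 148.3 in wild-type zymogenic against 60 in wild-type neck cells, a called difference of 1.31, and 89.9 in MIST1-null zymogenic against 59.8 in MIST1-null neck cells, which was 0.59. Its order, with both zymogenic values higher and the wild-type zymogenic value highest, was like that of Lgr5. Fzd4 was called higher in MIST1-null than in wild-type zymogenic cells, at 92.1 against 37.0, and lower in zymogenic than in neck cells of wild-type mice, at 37.0 against 100.1. Fzd1 had 146.7 in wild-type neck cells and 41.3 to 56.3 on the other arrays, so that it was called lower in MIST1-null than in wild-type neck cells (-1.51) and lower in zymogenic than in neck cells of wild-type mice (-1.83). The calls of Fzd1 held with the pseudocount of 32, while those of Fzd10 (0.97) and Fzd4 (0.85 between genotypes and -0.94 between cell types) were lost.

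Extracellular inhibitors of Wnt proteins included the largest cell type difference of the Wnt lists. Sostdc1, a secreted antagonist of Wnt and BMP signals, had 982.2 in MIST1-null zymogenic, 1112 in wild-type zymogenic, 41.5 in MIST1-null neck and 135 in wild-type neck cells. Sfrp1, a secreted Frizzled-like inhibitor, had 50.7 in MIST1-null zymogenic, 56.7 in wild-type zymogenic, 18.8 in MIST1-null neck and 23.9 in wild-type neck cells. Both were called higher in zymogenic cells of both genotypes, with differences of 4.56 in MIST1-null and 3.04 in wild-type mice for Sostdc1 and of 1.43 in MIST1-null and 1.25 in wild-type mice for Sfrp1. The cell type calls of Sostdc1 held with the pseudocount of 32, at 3.79 in MIST1-null and 2.78 in wild-type mice, and those of Sfrp1, whose neck values were under the detection level, were lost, at 0.70 and 0.67. Sostdc1 and Sfrp1 were the only ones of 14 inhibitor genes, of which 8 were detectable, called in the cell type comparisons. Between genotypes, Sfrp2 was called higher in MIST1-null zymogenic cells, at 66.5 against 24.6 in wild-type zymogenic cells, and Sostdc1 lower in MIST1-null neck cells. The call of Sfrp2 was lost with the pseudocount of 32, at 0.80, and that of Sostdc1 held, at -1.18.

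Of 16 measured genes of the beta-catenin destruction complex and its regulators, 15 were detectable and 0 were called in any of the 4 comparisons. Ctnnb1, the gene of beta-catenin, had 79.5 in MIST1-null zymogenic, 61.5 in wild-type zymogenic, 111 in MIST1-null neck and 115.2 in wild-type neck cells, so both neck values lay above both zymogenic ones. Of 15 TCF/LEF and nuclear cofactor genes, 11 were detectable and only the repressor-type factor gene Tcf7l1 was called (9.09%), with 69.8 in wild-type zymogenic against 31.5 in wild-type neck cells (1.15). This call was lost with the pseudocount of 32, at 0.68. Its value in MIST1-null zymogenic cells was 35.2 and in MIST1-null neck cells 44.4.

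Of 21 measured Wnt feedback and target genes, 16 were detectable and 4 of those (25.0%) were called in any comparison, namely Lgr5, Sp5, Sox9 and Prox1, a share near the 23.1% of all genes. Sp5, a transcription factor gene and direct Wnt target, had 80.9 in MIST1-null zymogenic, 124.9 in wild-type zymogenic, 19.5 in MIST1-null neck and 24.0 in wild-type neck cells. As for Lgr5, both zymogenic values were higher and the wild-type zymogenic value was the highest, with cell type differences of 2.05 in MIST1-null and 2.38 in wild-type mice. With the pseudocount of 32 they were 1.13 and 1.49. Sox9, a transcription factor gene of progenitor cells, ran the other way, with 406.8 in MIST1-null zymogenic, 387.8 in wild-type zymogenic, 1237.5 in MIST1-null neck and 803.2 in wild-type neck cells. Its cell type difference with the pseudocount of 32 was -1.53 in MIST1-null mice, and -0.99 in wild-type mice, where the call was lost. Prox1 was called higher in wild-type zymogenic than in wild-type neck cells (1.63) and higher in MIST1-null than in wild-type neck cells (1.18), with 19.5 in wild-type neck cells and 43.1 to 60.3 elsewhere. Both calls of Prox1 were lost with the pseudocount of 32, at 0.84 and 0.56. The median cell type difference of these 21 genes with the pseudocount of 32 was 0.14 in MIST1-null and 0.05 in wild-type mice, against 0.03 over all genes in each. Lgr5 and Sp5 lay above this middle and Sox9 lay below it.

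**Figure D4:**
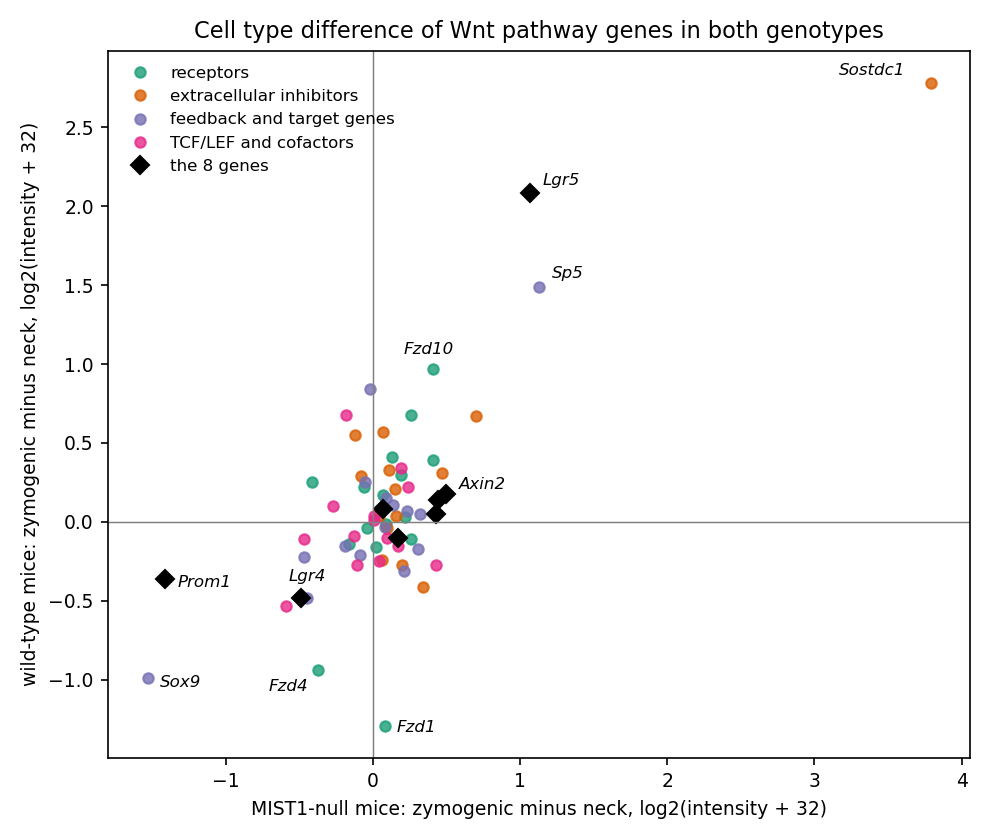
Zymogenic minus neck difference on the log2(intensity + 32) scale in MIST1-null mice (x axis) and wild-type mice (y axis), with 1 point per gene for the Wnt pathway lists and black diamonds for the 8 genes. Sostdc1, Lgr5 and Sp5 lie at the upper right, Sox9 and Prom1 at the lower left, and most genes near 0. These comparisons share no array.

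Of 20 other genes reported as stem or progenitor cell markers, 13 were detectable and 7 were called in any comparison, 4 of them also with the pseudocount of 32. Among them Stmn1, a microtubule regulator of dividing cells, had 544.7 in MIST1-null zymogenic, 337.7 in wild-type zymogenic, 1129 in MIST1-null neck and 871.4 in wild-type neck cells. Epcam, an epithelial adhesion gene, was called lower in zymogenic cells of MIST1-null mice (-1.22) and had -0.87 in wild-type mice. In MIST1-null mice 3 of the 13 that were detectable were called lower in zymogenic cells and 1 higher, against 4.8% and 4.9% of all detectable genes. In wild-type mice 4 of 11 were called lower and 0 higher, against 6.78% and 6.27%. With the pseudocount of 32 the 3 lower calls in MIST1-null mice held (Sox9, Stmn1 and Epcam), and in wild-type mice 1 did (Stmn1). Their median cell type difference with the pseudocount of 32 was -0.06 in MIST1-null and -0.30 in wild-type mice, against 0.03 over all genes in each.

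Between genotypes 3 of the 12 that were detectable in zymogenic cells were called there, all higher in MIST1-null mice, and with the pseudocount of 32 only the call of Runx1 held (1.54). Runx1, a transcription factor gene, had 257.4 in MIST1-null against 67.6 in wild-type zymogenic cells, with 149.6 in MIST1-null neck and 135.8 in wild-type neck cells. Krt19, an epithelial keratin, had 63.2 in MIST1-null against 17.1 in wild-type zymogenic cells. Cckbr, the gastrin receptor gene, had 63.4 in MIST1-null against 28.7 in wild-type zymogenic cells. The wild-type zymogenic array held the lowest of the 4 values for Runx1 and Krt19, as it did for the parietal marker sum, and Cckbr also stands in the parietal list. In neck cells only Olfm4, a secreted glycoprotein gene, was called, with 61.5 in MIST1-null against 19.9 in wild-type neck cells, a call that was lost with the pseudocount of 32 (0.85).

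Of 19 measured Polycomb genes, which include Bmi1, 17 were detectable and 3 of those (17.6%) were called in any comparison, against 23.1% of all genes. Pcgf2, the closest relative of Bmi1, had 32.6 in MIST1-null zymogenic, 38.4 in wild-type zymogenic, 78.7 in MIST1-null neck and 81.2 in wild-type neck cells, and was called lower in zymogenic cells of both genotypes. Ezh2, the methyltransferase of Polycomb repressive complex 2, was called lower in zymogenic cells of MIST1-null mice (-1.37). Cbx8 was called higher in wild-type zymogenic than in wild-type neck cells (1.49) and lower in MIST1-null than in wild-type zymogenic cells (-1.26). The call of Ezh2 held with the pseudocount of 32 (-1.02), while every call of Pcgf2 (-0.78 and -0.69) and Cbx8 (0.87 and -0.76) was lost. Of 9 relatives of the 8 genes, Eda2r, a receptor gene of the same family as Tnfrsf19, was called lower in MIST1-null zymogenic cells, at 27.1 against 62.0 in wild-type zymogenic cells, a call that was lost with the pseudocount of 32 (-0.67).

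Genes with the most similar pattern over the 4 arrays were sought by the root mean square distance between log2 values with the pseudocount of 32, each centred on its own mean, among 11915 named genes detectable on any array. For Lgr5, whose values spanned 2.08 on this scale, the nearest were Jph2, a junction protein of muscle membranes (0.159), Amy1, an amylase (0.220), and Kcnj13, a potassium channel (0.225). Amy1 had 898.7 in MIST1-null zymogenic, 1704 in wild-type zymogenic, 426.7 in MIST1-null neck and 239.1 in wild-type neck cells. No gene lay within 0.1 of Lgr5. This limit takes no account of span, and Lgr5 had the widest span of the genes described here. The count therefore cannot tell whether its pattern was closely matched. Jph2, Amy1 and Kcnj13 each ordered the arrays as Lgr5 did. Jph2 had 236.5 in MIST1-null zymogenic, 300.2 in wild-type zymogenic, 64.2 in MIST1-null neck and 52.3 in wild-type neck cells.

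For Prom1 the nearest were Chn2, a regulator of Rac GTPases (0.053), the histone variant gene H2az2 (0.061) and Gsdma2, a gasdermin (0.062), and 6 genes lay within 0.1. The nearest were Gins4, Tmprss4 and Cpsf3 for Lgr4, Pop7, Thy1 and Kcnk15 for Rnf43, and Mnx1, Snph and Ramp1 for Axin2. They were Arpc5l, Borcs6 and Zfp809 for Tnfrsf19, Vax2, Ube4a and Pbx2 for Lrig1, and Kif19a, Ska1 and Gpn2 for Bmi1. For these 6 genes between 277 and 1041 genes lay within 0.1, as their own values spanned only 0.27 to 0.64, so such likeness sets none of them apart.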

How the data were processed

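RNA from 4 pools of laser-captured cells, 1 per group, was hybridised to Affymetrix Mouse Gene ST arrays. Per the label protocol, RNA of several dissections and mice was pooled and amplified. The deposited values are linear probe set intensities (0.86 to 14250.81), which the authors compared between arrays in dChip, per the series design text. How they corrected background, summarised probes and scaled arrays is not stated. No detection calls were used, and precision is limited by the number of arrays.

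The platform annotation gives 1 gene to 21789 of 35512 probe sets and several genes to 1621, and does not name the other 12102. Those with 1 gene gave 19938 genes, each read by its probe set with the highest mean log2 intensity. Values were floored at 1 before log2. With 1 array per group there was no test. The code was tested on simulated data, with Python 3.11.15, pandas 2.3.3, R 4.3.3 and limma 3.58.1.

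The 8 genes, the gene lists and the alternatives were chosen with earlier results of these data known. Named genes were the 8 genes, their 3 nearest genes each, Bhlha15, markers of both cell types and up to 4 called genes per list and comparison. Lgr6, Znrf3, Ctnnb1 and Cdk1 were named outside this rule. Alternatives were the pseudocount of 32, median centring, quantile normalization, cyclic loess, no filter, a filter at the 75th percentile (80.9) and the mean over probe sets.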

Additional observations from a re-analysis of the deposited data

Results flagged for a closer look

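With 1 array per group, 4 results for genes detectable in both comparisons ran in opposite directions in the groups compared. None of these differences was tested. The MIST1-null minus wild-type difference of Lgr5 was -0.53 in zymogenic and 0.95 in neck cells. That of Prom1 was -0.82 in zymogenic and 0.34 in neck cells. For Rnf43 it was 0.34 in zymogenic and -0.10 in neck cells. The zymogenic minus neck difference of Bmi1 was 0.22 in MIST1-null and -0.13 in wild-type mice. Axin2, which was not detectable in neck cells, also had genotype differences of opposite sign, at 0.40 in zymogenic and -0.15 in neck cells.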

How the results depend on the processing

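No paired analysis was possible because each group had 1 array and the labels give no replicate numbers. Of the cell type calls, Lgr5 in both genotypes and Prom1 in MIST1-null mice were called under all 7 alternatives. The cell type difference of Lgr5 ran from 1.07 to 1.42 in MIST1-null and from 2.08 to 2.96 in wild-type mice, and that of Prom1 in MIST1-null mice from -1.63 to -1.41. Between genotypes, 0 of the 8 genes were called under every alternative but median centring, which called 1 gene in neck cells, Lgr5, at 1.00 against 0.95 without it. With the pseudocount of 32 that difference was 0.56. Of 224 differences of the 8 genes under the alternatives, 223 kept their side of 2-fold. This total includes the differences under the mean over probe sets and the changes of filter, which are the same as the main ones by construction. At 2 decimals no difference passed to the other side of 0, and 2 differences were too close to 0 for a firm sign. That of Tnfrsf19 in neck cells was 0.01 and came to 0.0 at its lowest. That of Bmi1 in zymogenic cells was -0.0 and came to -0.07 at its lowest.

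Counts over all genes moved more. With the pseudocount of 32, 345 genes in zymogenic and 81 in neck cells were called between genotypes, against 1228 and 470 without it, and 436 in MIST1-null and 576 in wild-type mice between cell types, against 1098 and 1538. With the filter at the 75th percentile these 4 counts were 716, 224, 661 and 953, as fewer genes were tested. With no filter, 2010 and 889 genes were called between genotypes in zymogenic and neck cells. Median centring gave 259 genes higher and 216 lower in MIST1-null than in wild-type neck cells, against 207 and 263 without it. Of the counts and medians of the gene lists, 235 of 280 counts stayed within 1.5 times and 271 of 280 medians within 0.1. The pseudocount of 32 moved 21 of its 40 list counts and all 9 of the medians that moved, and the filter at the 75th percentile moved 13 of its 40 counts. Signal over background is unknown, so differences between values near 43.7 are the least firm.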
